A study of Mus musculus with 8 samples.

Results

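The genes of the mGluR6 signalling complex of ON bipolar cells were compared between neural retinas of Mfp2-/- and control mice. The complex was taken as 10 genes by symbol, namely Grm6, Trpm1, Nyx, Gpr179, Lrit3, Rgs7, Rgs11, Gnb5, Gng13 and Pcp2, out of 43472 symbols in the count tables. All 10 were present and 9 were high enough to be tested. In Mfp2-/- retinas 5 of these 9 were called higher, Grm6, Gpr179, Nyx, Gng13 and Trpm1, by 1.57-fold to 2.12-fold. The groups overlapped for Trpm1, and its call was lost in 9 of 20 alternative analyses. Lrit3 fell to 0.226 of its control level. For comparison, 13.8% of all genes tested were called higher and 13.2% lower. Rgs7, Rgs11 and Pcp2 did not pass the test.

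Mice of both groups were 3 weeks old (postnatal day 21), of C57BL/6J background and bred from heterozygous pairs. For each mouse the RNA of the left and right retina was pooled into 1 library. Of the mice, 4 were Mfp2-/-, which lack the peroxisomal β-oxidation enzyme MFP2 in all cells, and 4 were controls, of which 3 were Mfp2+/+ and 1, control replicate 2, was Mfp2+/-. Libraries were made with a 3′ mRNA kit (QuantSeq), in which a transcript gives reads near its 3′ end whatever its length, and the reads were counted per gene.

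In the outer retina, photoreceptors release glutamate in the dark. ON bipolar cells sense it with the metabotropic receptor mGluR6, which activates the G protein Go and thereby keeps the cation channel TRPM1 closed. Light stops the glutamate release, Go is switched off by regulators of G protein signalling held near the receptor, and TRPM1 opens. The current through ON bipolar cells gives the b-wave of the electroretinogram, and loss of Grm6, Trpm1, Nyx, Gpr179 or Lrit3 leaves a retina without a b-wave in mice and causes congenital stationary night blindness in humans. The counts bear on the mRNA of these genes only, since protein, its place at the synapse and the b-wave were not measured in these files.

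Hsd17b4, the gene that encodes MFP2, had 1, 0, 1 and 0 counts in Mfp2-/- replicates 1 to 4, against 47, 20, 78 and 37 counts in control replicates 1 to 4. Depth ranged over 1895485 to 2826553 gene counts in the Mfp2-/- libraries, against 2340974 to 3226187 in the controls. Of the Mfp2-/- libraries, replicates 2 and 3 stood apart, with 10.8% and 15.7% of reads outside annotated genes against 27.5% and 28.0% in replicates 1 and 4 and 22.6% to 29.9% in control libraries. Counts and calls within the complex and its related lists that differ without these 2 libraries are given with both values. The summed level of 12 rod markers was 1057 to 1501 CPM (counts scaled to library size) in Mfp2-/- retinas, against 25261 to 29065 CPM in control retinas, and that of 8 microglia markers was 241 to 352 CPM against 56.8 to 73.8 CPM. None of the markers in these lists was at 0 in all libraries. In counts of whole retinas, fewer cells of a type and less RNA per cell cannot be told apart. By histology at the same age, the study found photoreceptor nuclei of Mfp2-/- retinas normal in number. It also found more of these nuclei positive for TUNEL, a stain for dying cells.

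The 10 genes together took 0.165% to 0.241% of the counts in genes in Mfp2-/- libraries, against 0.113% to 0.133% in control libraries. Single genes were tested with edgeR's quasi-likelihood test on counts scaled by TMM factors, with Benjamini-Hochberg adjustment over all 12516 genes kept by the filter on low counts, and were called at an adjusted p under 0.05. Of all genes tested, 13.8% were called higher and 13.2% lower in Mfp2-/- retinas. The median log2 fold change was 0.66 over the 9 tested genes of the complex and -0.0039 over all genes. The Mfp2-/- and control libraries did not overlap in 5 of the 9, with all Mfp2-/- libraries higher in 4 and lower in 1, where 15.1% of all genes were separate and higher and 15.8% separate and lower.

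**Figure D1:**
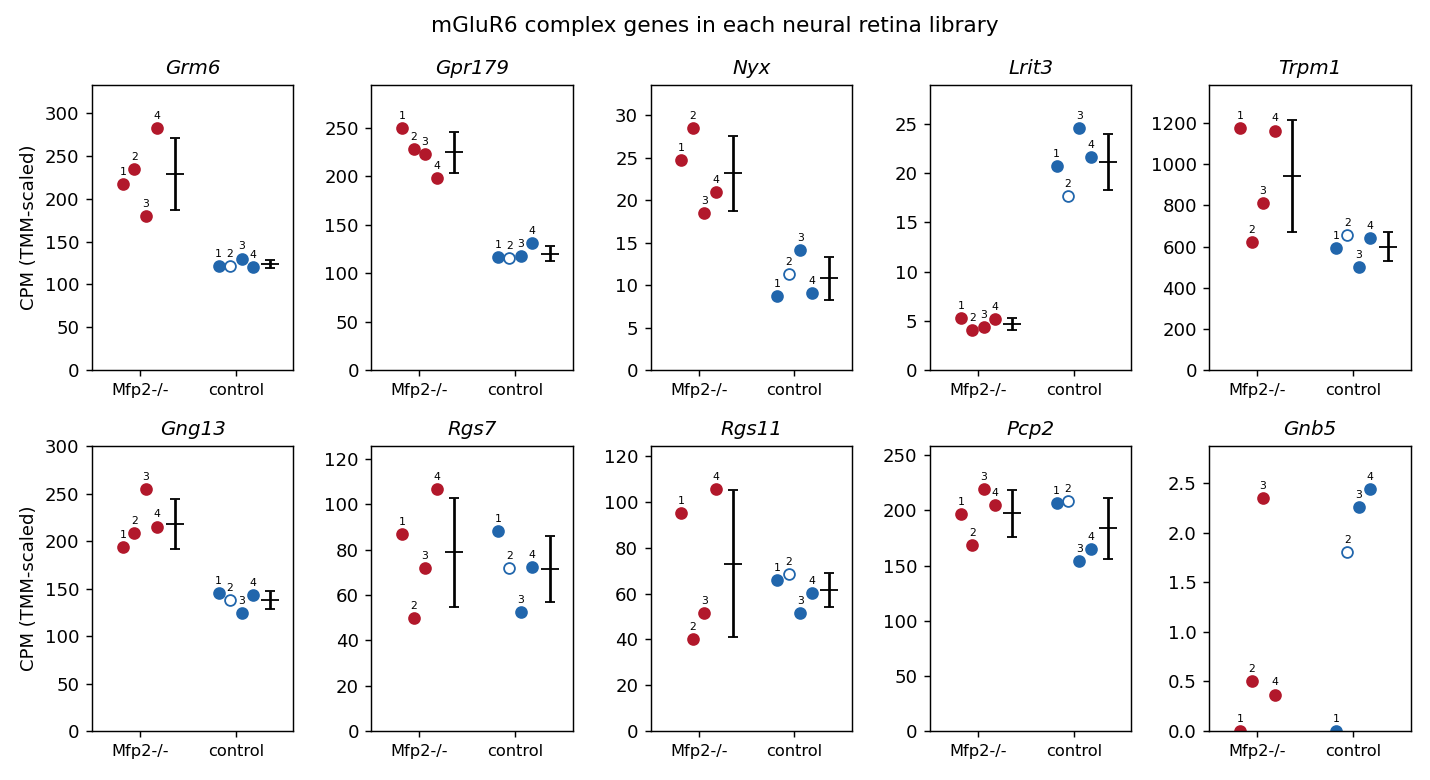
Level of each of the 10 genes in every library, in CPM after TMM scaling (axes from 0), with Mfp2-/- in red on the left and control in blue on the right. Numbers are replicates, the open circle is the Mfp2+/- control, and the bar beside each group is the mean ± SD of 4 libraries (none is drawn for Gnb5). All Mfp2-/- libraries lie above all controls for Grm6, Gpr179, Nyx and Gng13 and below them for Lrit3, while the groups overlap for Trpm1, Rgs7, Rgs11, Pcp2 and Gnb5.

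The start regions of 4 of the genes are shown because Grm6, Gpr179 and Trpm1 rose in Mfp2-/- retinas while Lrit3 fell. Each line gives the 150 bases before a start annotated by RefSeq on the mouse genome GRCm38.p6, read in the direction of the gene. Capitals mark 2 motifs searched on both strands, TAATCC (reverse complement GGATTA), the core letters bound by the photoreceptor and bipolar factors OTX2 and CRX, and CAGATG (reverse complement CATCTG), an E-box.
Grm6, chr11:50850535-50850684, plus strand: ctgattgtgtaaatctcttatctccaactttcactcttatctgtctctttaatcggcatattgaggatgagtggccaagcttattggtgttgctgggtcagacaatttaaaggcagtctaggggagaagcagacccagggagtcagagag
Gpr179, chr11:97352357-97352506, minus strand: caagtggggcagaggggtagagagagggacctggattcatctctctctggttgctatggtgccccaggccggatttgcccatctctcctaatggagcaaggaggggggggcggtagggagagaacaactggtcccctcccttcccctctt
Trpm1, chr7:64153685-64153834, plus strand: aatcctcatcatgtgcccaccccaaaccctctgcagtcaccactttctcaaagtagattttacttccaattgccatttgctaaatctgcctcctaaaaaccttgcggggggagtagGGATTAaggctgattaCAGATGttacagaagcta
Lrit3, chr3:129804137-129804286, minus strand: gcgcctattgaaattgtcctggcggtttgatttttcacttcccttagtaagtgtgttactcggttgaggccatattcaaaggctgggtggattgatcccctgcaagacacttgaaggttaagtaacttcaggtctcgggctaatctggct
The stretch of Trpm1 holds GGATTA and CAGATG once each, while those of Grm6, Gpr179 and Lrit3 hold neither. The Trpm1 start shown was picked because its window held these motifs. The window of another annotated Trpm1 start (chr7:64185209-64185508) had 0 matches. Gpr179 holds CAGATG at positions 12 to 17 past its start, beyond the stretch shown. In the windows searched, 250 bases before to 50 bases after a start, TAATCC on either strand was found in 7.06% and CAGATG in 17.2% of 32851 windows of mouse genes. Of the 10 genes, 9 had 14 such windows, and 2 of these held TAATCC and 5 held CAGATG, where 2 overlapping windows of Pcp2 hold the same CAGATG. A match of these letters is not a measured binding site.

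Grm6 encodes the receptor mGluR6 itself and lies on chromosome 11, 50850685 to 50866208 of the mouse genome GRCm38. It was at 217, 235, 180 and 282 CPM in Mfp2-/- replicates 1 to 4, against 122, 122, 130 and 121 CPM in control replicates 1 to 4. All Mfp2-/- libraries were above all controls, and the spread was wider among the Mfp2-/- libraries (229 ± 42.3 CPM) than among controls (124 ± 4.43 CPM, SD, n = 4 each). The log2 fold change was 0.89 (standard error 0.15, adjusted p = 0.00151), a 1.85-fold increase. No counts were listed for Gm12660, a gene model that shares exon bases with Grm6 on the other strand.

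Gpr179 encodes an orphan receptor that anchors the regulators of G protein signalling at the dendritic tips of ON bipolar cells (chromosome 11, 97332109 to 97352077). Its level was 249, 229, 223 and 198 CPM in Mfp2-/- replicates 1 to 4, against 117, 115, 117 and 131 CPM in control replicates 1 to 4. The groups were separate, and the log2 fold change was 0.90, nearly that of Grm6 (adjusted p = 4.04e-04, standard error 0.12). Per 100 counts of Grm6 in the same library there were 70.1 to 124 counts of Gpr179 in Mfp2-/- retinas and 90.1 to 109 in control retinas, and these ranges overlap.

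Nyx, on the X chromosome (13466110 to 13489313), encodes nyctalopin, a leucine-rich repeat protein on the surface of ON bipolar dendrites that TRPM1 needs to reach the synapse. It had 70, 56, 55 and 57 counts in Mfp2-/- replicates 1 to 4 and 24, 25, 44 and 26 counts in control replicates 1 to 4. Scaled to library size, this was 18.5 to 28.5 CPM in Mfp2-/- retinas, against 8.73 to 14.2 CPM in control retinas, without overlap. At 1.08 on the log2 scale (standard error 0.22, adjusted p = 0.00482), the increase was the highest of the 9 tested genes, and its 95% interval of 0.60 to 1.57 holds the values of Grm6 and Gpr179.

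Trpm1 encodes the channel that carries the ON bipolar response (chromosome 7, 64153835 to 64269775). It was at 1173, 621, 811 and 1163 CPM in Mfp2-/- replicates 1 to 4, against 595, 658, 500 and 641 CPM in control replicates 1 to 4. Mfp2-/- replicate 2 lay within the control range, whereas replicates 1 and 4 were well above it. It changed by 0.66 on the log2 scale (standard error 0.21, adjusted p = 0.0376). This call was lost when control replicate 1, 2, 3 or 4 or Mfp2-/- replicate 1, 3 or 4 was left out (adjusted p 0.0531 to 0.0939), while without both Mfp2-/- replicates 2 and 3 the log2 fold change was 0.96 (adjusted p = 1.09e-04).

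Lrit3 was the gene of the complex that fell. It encodes a leucine-rich repeat protein that, in mice, is made by photoreceptors and acts across the synapse to bring nyctalopin and TRPM1 to the bipolar dendrite (chromosome 3, 129787881 to 129804030). It had 15, 8, 13 and 14 counts in Mfp2-/- replicates 1 to 4, against 57, 39, 76 and 62 counts in control replicates 1 to 4. Every Mfp2-/- library was below every control, at 4.72 ± 0.600 CPM against 21.1 ± 2.83 CPM (SD, n = 4 each). The log2 fold change was -2.15 (standard error 0.21, adjusted p = 3.37e-05), a 4.43-fold decrease with a 95% interval of -2.61 to -1.68 on the log2 scale. Relative to the receptor, there were 1.73 to 2.44 counts of Lrit3 per 100 counts of Grm6 in Mfp2-/- retinas, against 14.5 to 18.8 in control retinas.

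Gng13 encodes the G protein gamma subunit of ON bipolar cells (chromosome 17, 25717171 to 25719406). It was at 194, 209, 255 and 215 CPM in Mfp2-/- replicates 1 to 4, against 146, 138, 125 and 144 CPM in control replicates 1 to 4. The groups did not overlap, and the log2 fold change was 0.66 (standard error 0.13, adjusted p = 0.00380). Its end overlaps Chtf18 on the other strand by 399 bases, but Chtf18 had 32 counts over all libraries against 3807 of Gng13. Pcp2, which encodes a modulator of Go that is used as a marker of rod bipolar cells, lies on chromosome 8 (3623371 to 3625545). Its level was 196, 169, 219 and 205 CPM in Mfp2-/- replicates 1 to 4, against 207, 208, 154 and 165 CPM in control replicates 1 to 4. The libraries of both groups were mixed, at a log2 difference of 0.11 (adjusted p = 0.628), and the 95% interval of the fold change was 0.859 to 1.35. Pet100, on the other strand at the end of Pcp2, had 7.26% as many counts, and whether reads were counted by strand is not known here.

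Rgs7 and Rgs11 encode the 2 regulators that speed the hydrolysis of GTP by Go in ON bipolar cells, each bound to the atypical beta subunit encoded by Gnb5. Rgs7 (chromosome 1, 175059087 to 175492500) was at 87.1, 49.8, 71.9 and 107 CPM in Mfp2-/- replicates 1 to 4, against 88.1, 71.9, 52.6 and 72.5 CPM in control replicates 1 to 4. Rgs11 (chromosome 17, 26202951 to 26211324) was at 95.2, 40.1, 51.4 and 105 CPM in Mfp2-/- replicates 1 to 4, against 65.9, 68.3, 51.6 and 60.3 CPM in control replicates 1 to 4. In both genes the Mfp2-/- libraries spread to either side of the controls, so the test left a wide range open. The 95% interval of the fold change was 0.782 to 1.58 for Rgs7 (adjusted p = 0.657) and 0.782 to 1.82 for Rgs11 (adjusted p = 0.518). Without both Mfp2-/- replicates 2 and 3, Rgs11 was called higher with a log2 fold change of 0.71 (adjusted p = 0.00215). Arhgdig, which shares 138 exon bases with Rgs11 on the other strand, had 13.6% as many counts as Rgs11.

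Gnb5 (chromosome 9, 75306288 to 75345876) was barely counted in these libraries. It had 0, 1, 7 and 1 counts in Mfp2-/- replicates 1 to 4, against 0, 4, 7 and 7 counts in control replicates 1 to 4. The sums were 9 counts in Mfp2-/- retinas and 18 in control retinas, a depth-corrected ratio of 0.521 whose exact 95% bounds from counting error were 0.206 and 1.22. A difference in Gnb5 was not detectable from so few counts, and whether the 3′ end of its transcript in the retina lies within the annotation used for counting is not known here.

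The genes did not vary alike among the Mfp2-/- retinas. Trpm1, Rgs7, Rgs11 and Lrit3 were higher in each of replicates 1 and 4 than in each of replicates 2 and 3, with ratios of the pair means of 1.63, 1.59, 2.19 and 1.24. The order of Lrit3 rests on few counts, 15 and 14 in replicates 1 and 4 against 8 and 13 in replicates 2 and 3. For Grm6, Gpr179, Nyx, Gng13 and Pcp2 the pairs were mixed, with ratios of 0.883 to 1.20. The share of all genes with the same order of these libraries was not worked out, so the order is not particular to the complex as far as known here. Over all genes tested, the same ratio had a median of 1.22 in 1863 genes that span over 100 kb and of 0.872 in 2950 genes that span under 10 kb. Trpm1 spans 115941 bases and Rgs7 433414 bases, but Rgs11 spans 8374 bases, and the part of gene span in these values was not tested.

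To set the complex beside other transcripts of bipolar cells, the libraries were scaled to the mean log2 level of 20 other bipolar markers and tested again with edgeR's quasi-likelihood test. On this scale the median over all genes was -0.41, with 4.59% of genes called higher and 37.3% lower in Mfp2-/- retinas. Gpr179 (log2 fold change 0.49, standard error 0.13, adjusted p = 0.0109) was called higher on this scale, which is set by the mean of the markers. So were Grm6 (0.48, standard error 0.17, adjusted p = 0.0372) and Nyx (0.67, standard error 0.24, adjusted p = 0.0408). These p-values do not take in the spread among the markers. Under TMM scaling single markers ran from -0.80 to 0.99. Grm6 (0.89) and Gpr179 (0.90) lay within that range and Nyx (1.08) above it. Lrit3 was lower than the markers (log2 fold change -2.56, standard error 0.22, adjusted p = 3.85e-06). Gng13 (0.25, adjusted p = 0.185) and Trpm1 (0.23, adjusted p = 0.355) were no longer called, and the estimates for Rgs7 (-0.27), Rgs11 (-0.17) and Pcp2 (-0.31) turned negative without passing the test. Without both Mfp2-/- replicates 2 and 3, Trpm1 was called (log2 fold change 0.51, adjusted p = 0.0120) and Nyx was not (0.61, adjusted p = 0.0700). The count of 3 higher genes was 1 when control replicate 1, 2 or 4 or Mfp2-/- replicate 4 was left out. The higher calls also depend on the markers chosen. With rod bipolar markers alone 5 genes of the complex were called higher, beside 1639 of all 12516 genes higher and 1478 lower. With the 8 markers listed as pan-bipolar, 0 genes of the complex were called higher, beside 396 of all genes higher and 5818 lower. Not all markers of this list are found in every type of bipolar cell. Under this scaling Pcp2 (log2 fold change -0.46, adjusted p = 0.0311) was called lower beside Lrit3. Lrit3 was lower under each of these scalings.

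**Figure D2:**
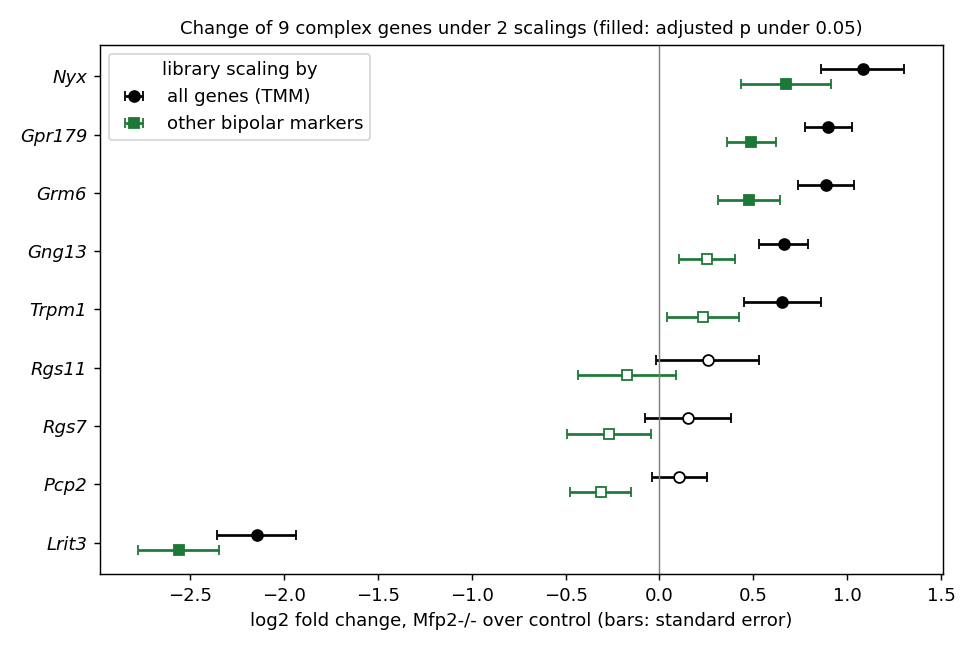
Log2 fold change of Mfp2-/- over control for the 9 tested genes, with libraries scaled by all genes (TMM, black circles) or by 20 other bipolar markers (green squares). Bars are standard errors and filled symbols have an adjusted p under 0.05 in edgeR's quasi-likelihood test. Lrit3 lies at -2.15 and -2.56, and Grm6, Gpr179 and Nyx are filled under both scalings.

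A ratio within a library does not depend on scaling, and 2 of the other 8 tested genes were separate between the groups when counted per 100 Grm6 counts. These were Lrit3 and Rgs7, both lower in Mfp2-/- retinas. Rgs7 had 40.1, 21.2, 39.9 and 37.8 counts per 100 Grm6 counts in Mfp2-/- replicates 1 to 4, against 72.2, 59.1, 40.3 and 59.9 in control replicates 1 to 4, so that the nearest values of the groups were almost the same. Of all genes tested, 57.6% were separate and lower per Grm6 count and 1.49% separate and higher, so a lower ratio was common for any gene. Trpm1 had 264 to 540 counts per 100 Grm6 counts in Mfp2-/- retinas and 384 to 541 in control retinas. The ranges also overlapped for Gpr179, Nyx, Gng13, Rgs11 and Pcp2.

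**Figure D3:**
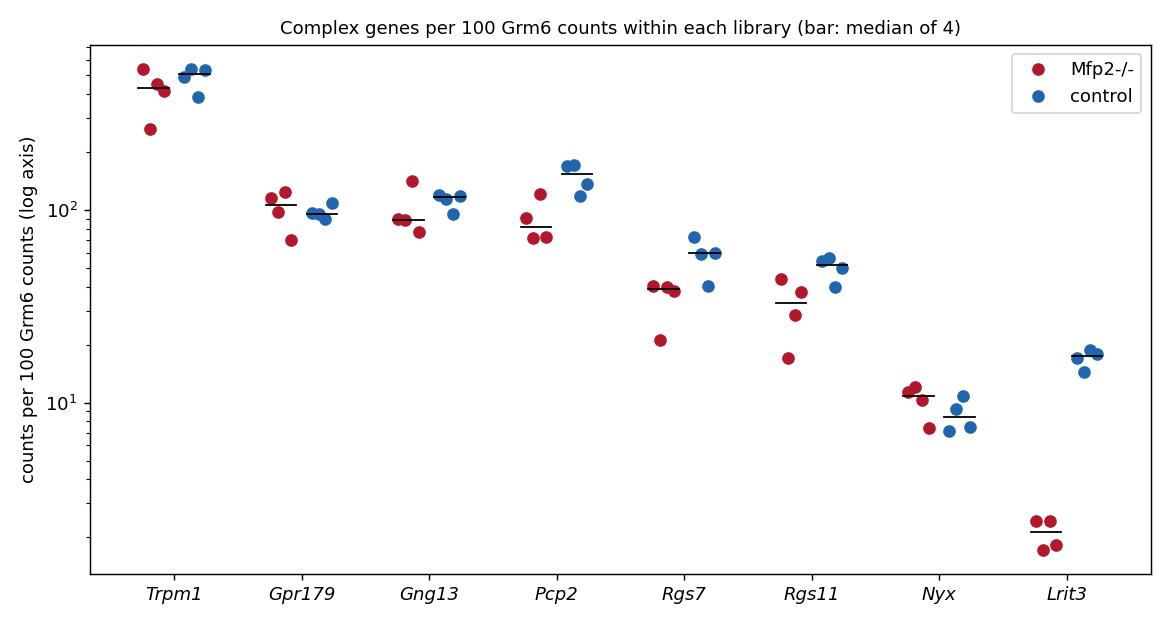
Counts of each of 8 genes per 100 counts of Grm6 in the same library, on a log axis, with Mfp2-/- libraries in red and control libraries in blue and the bar at the median of 4. Lrit3 lies at 1.73 to 2.44 in Mfp2-/- retinas and at 14.5 to 18.8 in control retinas, and Rgs7 is the other gene whose groups do not overlap.

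Of 9 further genes of the same G protein pathway or of related families, 4 were called higher and 4 lower in Mfp2-/- retinas, with a median log2 fold change of -0.29. Gnao1, the alpha subunit that mGluR6 activates, was at 1346 to 1506 CPM in Mfp2-/- retinas, against 1014 to 1187 CPM in control retinas (log2 fold change 0.39, adjusted p = 0.0319). Gnb3, the beta subunit that pairs with Gng13 in ON bipolar cells and is also used by cones, was at 285 to 350 CPM against 180 to 205 CPM (0.71, adjusted p = 0.00165). The other 2 that rose were Rgs6 (0.45) and Gpr158 (0.66), a relative of Gpr179. The 4 that fell were Rgs9 (-2.58) and its anchor Rgs9bp (-3.61), which end the photoreceptor response to light, and Lrit2 (-2.04) and Lrit1 (-1.33), relatives of Lrit3. Rgs7bp, the membrane anchor of Rgs7, was at 52.9 to 228 CPM in Mfp2-/- retinas and 130 to 203 CPM in control retinas (-0.29, adjusted p = 0.620). The count of higher genes in this list was 1 to 4 when single libraries were left out, being 1 without control replicate 1, control replicate 4 or Mfp2-/- replicate 3 and 2 without control replicate 2. It was also 2 without both Mfp2-/- replicates 2 and 3.

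Of 17 genes listed for the photoreceptor side of the same synapse, 10 fell and 1 rose in Mfp2-/- retinas. Their median log2 fold change was -1.44. Counts of whole retinas do not show in which cells these genes changed. Without both Mfp2-/- replicates 2 and 3, 11 fell. The smallest adjusted p-values were those of Cplx4 (-2.92), which controls vesicle release, Cabp4 (-4.10), a calcium sensor of the presynaptic channel, Slc17a7 (-1.81), the vesicular glutamate transporter, and Egflam (-2.73), which encodes pikachurin. Elfn1, which binds mGluR6 across the synapse of rods and was named after its values were seen, was at 23.5 to 31.0 CPM in Mfp2-/- retinas, against 81.2 to 126 CPM in control retinas (-1.97, adjusted p = 1.55e-05). The gene that rose was Dag1, encoding dystroglycan (0.45, adjusted p = 0.0306), also named after its values were seen. Dag1 was not called when control replicate 1, control replicate 2, Mfp2-/- replicate 1 or Mfp2-/- replicate 3 was left out, or both Mfp2-/- replicates 2 and 3. All 17 genes ran from -4.10 to 0.45, beside -2.15 for Lrit3 and 0.11 to 1.08 for the other tested genes of the complex. The cause of the fall in Lrit3 was not tested.

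Among the 20 other bipolar markers, 8 were called higher and 1 lower in Mfp2-/- retinas, with a median log2 fold change of 0.59. Without both Mfp2-/- replicates 2 and 3, 11 were called higher. The count of lower markers was 0 without control replicate 1, control replicate 3 or Mfp2-/- replicate 3. Of the 8 markers listed as pan-bipolar 5 rose, including Isl1 (0.78), Cabp5 (0.76), Lhx4 (0.66) and Scgn (0.55). Not all markers of this list are found in every type of bipolar cell. Of the 6 OFF bipolar markers 3 rose, which were Grik1 (0.78), Vsx1 (0.75) and Tacr3 (0.69). OFF bipolar cells do not use mGluR6. Of the 6 rod bipolar markers 0 were called higher and 1 lower, with a median log2 fold change of -0.01. Single genes of this list ran from -0.80 to 0.77. Prkca, the usual marker of rod bipolar cells, was named for that use and not for its p-value. It was at 207 to 337 CPM in Mfp2-/- retinas and 325 to 451 CPM in control retinas (-0.34, adjusted p = 0.183). In comparison, all 12 rod markers fell (median -4.61), 6 of 9 cone markers fell and 1 rose (median -0.73), and the 7 tested microglia markers rose (median 2.01). Genes of other inner retinal cell types rose too. Of the Müller cell markers 7 of 10 rose (median 1.03), with a summed level of 4559 to 6110 CPM in Mfp2-/- retinas, against 3690 to 4243 CPM in control retinas. Of the ganglion cell markers 4 of 8 rose (median 0.53), at 2091 to 2485 CPM in Mfp2-/- retinas, against 1389 to 1858 CPM in control retinas. Of the amacrine cell markers 3 of 10 rose (median 0.30), at 1880 to 2065 CPM in Mfp2-/- retinas, against 1540 to 1604 CPM in control retinas. Of the 6 horizontal cell markers 0 were called higher and 1 lower (median 0.04). The part of these cell markers in the levels of the complex was not tested.

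**Figure D4:**
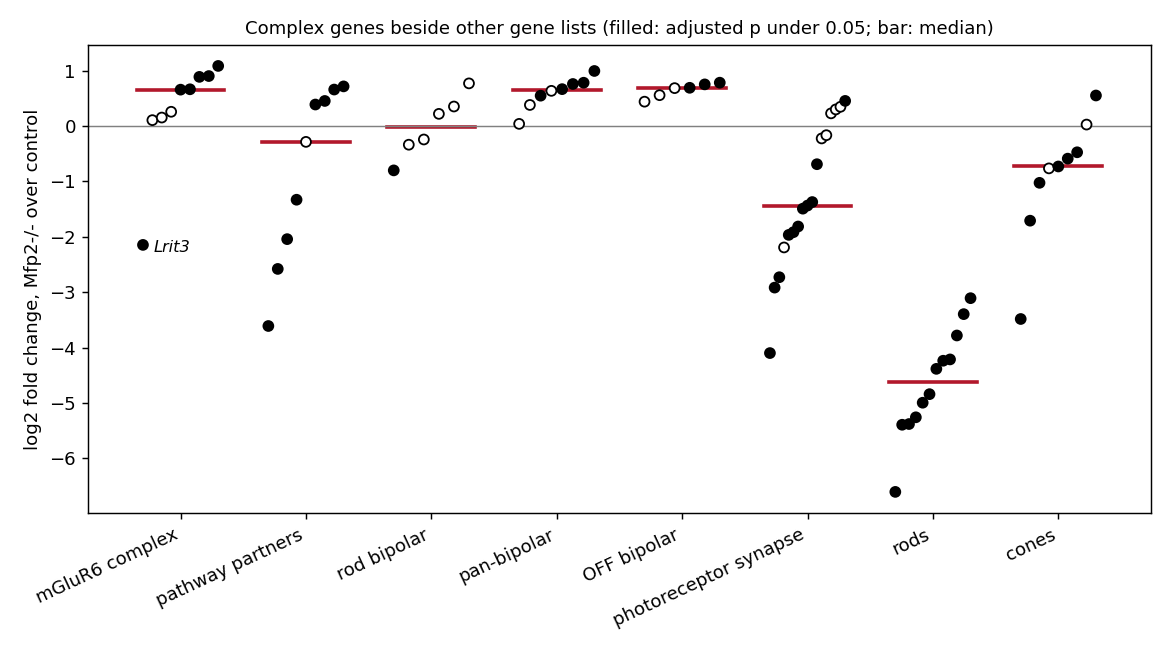
Log2 fold change of Mfp2-/- over control for each tested gene of the complex and of 7 other lists, 1 point per gene, with the median as a red bar and filled points at an adjusted p under 0.05 in edgeR's quasi-likelihood test. Lrit3 at -2.15 lies below the other 8 genes of the complex.

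The genes most like Grm6 and Lrit3 across libraries were listed by Pearson's r of log2 CPM over 8 libraries after subtraction of each group's mean, among 9891 genes at a mean of 10 CPM or more. For Grm6 these were Fam161b (0.958), Trp53bp1 (0.929), Clvs1 (0.929), Mib2 (0.920) and Cacna2d3 (0.919). For Lrit3 they were Atf6 (0.973), Sec23b (0.971), Zxdc (0.955), Gabpb2 (0.952) and Stau1 (0.950). No other gene of the complex was among either 5, and with 8 libraries and so many genes such values describe these libraries only.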

How the data were processed

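RNA of the neural retinas of 4 Mfp2-/- and 4 control mice was sequenced by the authors, who aligned the reads to the mouse genome mm10 and deposited raw counts per gene without normalization. The submitters' processing notes name FastQC 0.11.7, HISAT2, SAMtools 1.5 and HTSeq 2.7.14. Which annotation release was used, and whether counting used strand, is not given in the sources used here. The table of the whole series was left unused.

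Tests were run in edgeR 4.0.16 under R 4.3.3 (TMM factors, filterByExpr, quasi-likelihood test, Benjamini-Hochberg adjustment over 12516 genes). The groups were compared without a block, with the Mfp2+/- mouse kept among the controls, as in the study. Log2 CPM used a prior count of 2. A second fit was scaled to 20 bipolar markers. Intervals of fold changes are at 95% and those from summed counts cover counting error only, since reads were not collapsed by molecule. The members of the complex and all lists were chosen with earlier results of these data known. Named were the 10 members, Hsd17b4, Gnao1, Gnb3, the genes with the smallest adjusted p in a list (at most 4), and the 5 genes most like Grm6 and Lrit3. Not every gene taken by this rule is reported here. Others are marked or complete a count.

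Alternatives were other scaling factors, filters on low counts, DESeq2 1.42.0, limma 3.58.1 (voom and trend), a block for the replicate number, a robust fit, other bipolar markers for scaling, and leaving out each library or both Mfp2-/- replicates 2 and 3. Positions are those of GENCODE genes on GRCm38, and start regions those of RefSeq on GRCm38.p6, which matched 9 of the 10 genes.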

Additional observations from a re-analysis of the deposited data

Results flagged for a closer look

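In Grm6, control replicate 3 lay apart from the other controls at 130 CPM, with the nearest of them at 122 CPM. In Gpr179, control replicate 4 lay apart at 131 CPM, with the nearest other control at 117 CPM. Both libraries were picked out because the gap to the nearest library took more of the range of the 4 controls (0.889 for Grm6 and 0.872 for Gpr179) than Dixon's 95% critical value for 4 samples. Chance picks out about 1 in 20 such sets of 4 libraries, and each of the 10 genes was searched in both groups. Both values were below all Mfp2-/- libraries, the lowest of which were at 180 CPM for Grm6 and 198 CPM for Gpr179.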

How the results depend on the processing

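Of the 20 alternatives, the count of genes of the complex called higher (5) was 4 to 6, and Grm6, Gpr179, Nyx and Gng13 passed in all 20. Lrit3 passed in the 19 that tested it. With at least 10 counts in every library, Lrit3 was filtered out and 0 genes were called lower, also relative to bipolar markers. Trpm1 lost its call in 9 of 20, among them limma-trend (adjusted p = 0.0518). Rgs7 ranged over -0.0097 (without Mfp2-/- replicate 4) to 0.31 when single libraries were left out. Upper-quartile factors and total counts moved the median of all genes to 0.12 and the share of higher calls to 64.2% and 65.2% (51.2% with TMM), and called 2 photoreceptor-synapse genes higher. Without the low-count filter, 2 pathway partners and 0 photoreceptor-synapse genes were called higher, as without both Mfp2-/- replicates 2 and 3. Leaving out single libraries gave 1 to 4 partners higher, 0 to 1 photoreceptor-synapse genes higher and 0 to 1 bipolar markers lower. Whether replicate numbers pair the mice is not known here. Deviations of same-numbered libraries had correlations of 0.0798, -0.161, 0.251 and 0.211, which cannot decide it without differently numbered pairs beside them. With the replicate block, 4 genes of the complex were called higher (Trpm1 adjusted p = 0.0574) and 1 lower, with 1 partner higher, 0 photoreceptor-synapse genes higher, 0 bipolar markers lower and, relative to bipolar markers, 1 gene of the complex higher. Relative to bipolar markers, the count of 3 higher became 5 with rod bipolar markers, where Rgs7 (0.18), Rgs11 (0.28) and Pcp2 (0.13) turned positive, and 0 with pan-bipolar markers, where 2 were lower. Over all genes, 1639 and 396 were called higher under these scalings, in that order, and 1478 and 5818 lower. The count of 3 higher was 1 to 3 without single libraries, being 1 without control replicate 1, 2 or 4 or Mfp2-/- replicate 4. Rgs11 ranged over -0.41 to 0.0041 (without Mfp2-/- replicate 2) when single libraries were left out and was at 0.25 without both Mfp2-/- replicates 2 and 3. On this scale the calls of Grm6, Nyx and Gpr179 were lost in 7, 9 and 1 of 14 alternatives, and Lrit3 kept its call in all 13 that tested it. The causes were not tested. With 8 to 76 counts per library, Lrit3 and Nyx carry the largest counting error among the tested genes of the complex, and Gnb5 could not be tested.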
